A study of Mus musculus with 41 samples.

Results

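The genes on either side of Uhrf1 on mouse chromosome 17 were compared between mice with floxed and with intact Uhrf1 alleles. They were taken by position: every gene of the count table on chromosome 17 whose start lies between 46303321 and 66323486 (GRCm38), which is 10 Mb to either side of Uhrf1 (56303321 to 56323486, plus strand), without Uhrf1 itself. The rule gave 158 of 19434 genes, 100 at lower and 58 at higher coordinates, with 69 starting within 2 Mb of the Uhrf1 start, 11 at 2 to 5 Mb and 78 at 5 to 10 Mb. The rest of chromosome 17 held 799 genes. Of the 158, 12 had no count in any of the 41 libraries, 58 passed the expression filter in no fit and 93 passed it in every fit.

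The study sequenced RNA from sorted mouse regulatory T cells (Treg cells, which carry the transcription factor Foxp3) and from cells that had lost Foxp3, all at 8 weeks of age. In the first experiment, CD25hiFoxp3-YFP+ Treg cells came from females that were Uhrf1fl/flFoxp3+/YFP-Cre (chimeric knockout, n = 4) or Uhrf1+/+Foxp3YFP-Cre/YFP-Cre (control, n = 4). Foxp3 lies on the X chromosome, so in the chimeric knockouts only the Treg cells that used the Cre-bearing X could recombine Uhrf1, and the sort took those cells. In the second, a pulse-chase experiment, mice were Uhrf1fl/flFoxp3GFP-CreERT2Rosa26SorCAG-tdTomato (n = 6) or the same with Uhrf1+/+ (control, n = 5), ate tamoxifen chow for 2 weeks and then standard chow for 4 weeks. Their tamoxifen-dependent Cre is driven by Foxp3, and tdTomato marks cells in which it has acted. Each mouse group gave labeled Treg cells, positive for both Foxp3-GFP and tdTomato, ex-Foxp3 cells, which had tdTomato but no Foxp3-GFP, and post-tamoxifen Treg cells, which had Foxp3-GFP but no tdTomato. All groups carried Cre at Foxp3. Strain backgrounds, the floxed exons and the sex of the pulse-chase mice are not given in the sources used here.

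Uhrf1 binds hemimethylated CpG after replication and brings Dnmt1 to copy the methyl mark to the new strand. A targeted allele is usually made in embryonic stem cells of 1 strain and then backcrossed, and the DNA on either side of it stays linked to it, so that genes near a floxed locus can carry variants of the donor strain in every cell of the floxed mice and in none of the controls. Such variants would sit near the locus and be present in all cell populations of a mouse, whether or not Cre has acted there. Their effect on RNA levels need not be the same in each population. The window also holds genes with known parts in T cells, among them Satb1, Ebi3, Tnfsf14, Treml2, Vav1 and Ccnd3.

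The promoters of 6 genes of the window are shown, because the results below turn on them and because CpG, the dinucleotide that Uhrf1 acts on, differs widely in number among them. Each stretch covers 250 bases before to 50 after the RefSeq gene start (GRCm38.p6), 5′ to 3′ on the gene's strand, with every CG in capitals. Ttbk1 (chr17:46487626-46487925, minus strand), Satb1 (chr17:51833241-51833540, minus strand), Ebi3 (chr17:55952373-55952672, plus strand), Ptprs (chr17:56476431-56476730, minus strand), Slc25a23 (chr17:57059814-57060113, minus strand) and C3 (chr17:57228087-57228386, minus strand) follow.
Ttbk1: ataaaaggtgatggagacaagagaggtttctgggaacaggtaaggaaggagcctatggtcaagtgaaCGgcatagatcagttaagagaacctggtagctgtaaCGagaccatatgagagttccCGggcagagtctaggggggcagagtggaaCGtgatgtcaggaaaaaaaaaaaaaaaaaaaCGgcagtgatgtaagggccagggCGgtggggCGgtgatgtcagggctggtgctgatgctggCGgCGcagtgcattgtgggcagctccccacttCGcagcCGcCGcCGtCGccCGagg
Satb1: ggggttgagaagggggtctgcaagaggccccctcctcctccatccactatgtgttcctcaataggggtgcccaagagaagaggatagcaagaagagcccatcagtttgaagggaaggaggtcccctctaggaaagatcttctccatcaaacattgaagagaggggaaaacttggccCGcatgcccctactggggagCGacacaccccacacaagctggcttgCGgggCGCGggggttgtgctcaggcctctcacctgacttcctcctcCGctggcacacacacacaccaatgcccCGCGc
Ebi3: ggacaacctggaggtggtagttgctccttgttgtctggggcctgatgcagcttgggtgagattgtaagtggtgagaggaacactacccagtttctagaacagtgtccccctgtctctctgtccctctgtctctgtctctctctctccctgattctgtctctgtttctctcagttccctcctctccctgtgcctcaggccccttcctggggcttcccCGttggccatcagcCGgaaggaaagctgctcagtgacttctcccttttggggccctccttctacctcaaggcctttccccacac
Ptprs: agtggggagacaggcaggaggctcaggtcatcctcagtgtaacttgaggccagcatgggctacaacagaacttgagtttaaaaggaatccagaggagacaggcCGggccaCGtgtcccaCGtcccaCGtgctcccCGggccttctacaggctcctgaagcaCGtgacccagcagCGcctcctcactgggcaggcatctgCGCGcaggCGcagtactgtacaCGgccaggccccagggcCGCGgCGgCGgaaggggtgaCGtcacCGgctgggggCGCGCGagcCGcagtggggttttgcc
Slc25a23: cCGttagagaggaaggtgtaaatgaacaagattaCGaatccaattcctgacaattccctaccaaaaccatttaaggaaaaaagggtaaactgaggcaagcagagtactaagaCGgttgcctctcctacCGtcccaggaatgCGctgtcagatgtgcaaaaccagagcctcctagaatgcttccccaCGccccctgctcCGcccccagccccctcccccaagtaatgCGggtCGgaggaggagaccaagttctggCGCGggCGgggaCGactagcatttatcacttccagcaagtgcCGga
C3: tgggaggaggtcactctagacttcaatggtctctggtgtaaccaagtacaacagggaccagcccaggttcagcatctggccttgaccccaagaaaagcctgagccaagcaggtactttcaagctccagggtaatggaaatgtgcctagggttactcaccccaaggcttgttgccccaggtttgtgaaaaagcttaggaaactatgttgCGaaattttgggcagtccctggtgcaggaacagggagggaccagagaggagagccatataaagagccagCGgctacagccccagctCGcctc
Ptprs held 21 CG, Ttbk1 15, Slc25a23 14, Satb1 8, C3 3 and Ebi3 2. Of the 158 genes, 123 matched a RefSeq promoter. Their median was 18 CG per 300 bases, against 14 for the 607 matched genes elsewhere on chromosome 17 and 16 for all 13743 matched genes. At least 1 CG was present in 98.4% of the window's promoters and in 95.4% of all promoters, and 5 or fewer in 17.9% and 27.3%. The data hold no methylation measurement of these stretches.

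Total counts ran from 781437 to 5709702 per library, and the window took 0.672% to 0.821% of them, with overlapping ranges between genotypes in every pulse-chase population. In the chimera the window's share was 0.762% to 0.789% in controls and 0.791% to 0.807% in the chimeric knockouts. Uhrf1 itself stood at 32.5, 22.4, 23.4 and 22.3 CPM (counts scaled to equal library totals) in the chimera controls and at 12, 8.66, 9.27 and 22.3 CPM in the knockouts. The library labelled chimeric knockout 4 was therefore at the level of the controls. In the pulse-chase populations Uhrf1 was not called (log2 fold change -0.15 ± 0.60 (SE) in labeled, -0.20 ± 0.68 in ex-Foxp3 and 1.62 ± 0.64 in post-tamoxifen cells, edgeR adjusted p = 0.961, 0.976 and 0.113), so its whole-gene count did not check those labels. Chimera control 1, labelled female, held Y-linked reads (430.5 CPM), as did pulse-chase controls 2 and 3 in all 3 populations (318 to 455 CPM). B and plasma cell markers were at 81.2 and 75.4 CPM in chimera controls 3 and 4 (other chimera libraries at most 15.4) and at 167 to 554 CPM in post-tamoxifen fl/fl numbers 1 to 3 (numbers 4 to 6 at 8.46 to 11.3). In both genotypes numbers 1 to 3 carried more division markers than the higher numbers in post-tamoxifen cells (controls 305 to 1037 against 134 to 157 CPM, fl/fl 2330 to 3526 against 242 to 418 CPM) and in labeled cells (controls 766 to 1278 against 218 to 221 CPM, fl/fl 1618 to 2527 against 249 to 314 CPM). Markers of the sorted cells were present in every library, with Foxp3 at 13.3 to 151 CPM in ex-Foxp3 cells and 123 to 767 CPM elsewhere.

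With edgeR on all libraries, the share of called genes within 10 Mb of Uhrf1 was at or below the share over all genes in each of the 5 comparisons, read without a test of the difference. For the chimera this order depended on the fit. In chimeric knockout against control Treg cells, 2 of the 94 window genes tested were called, both lower (edgeR quasi-likelihood test, Benjamini-Hochberg adjusted p under 0.05). That is 2.13%, against 2.41% of all 9569 genes tested (0.857% higher, 1.56% lower) and 1.69% (7 of 413) on the rest of chromosome 17. With DESeq2 the order turned, with 6 of 94 window genes called (6.38%) against 3.32% of all genes, and the window's share was above that of all genes in 7 of 14 alternative fits of the chimera. In post-tamoxifen Treg cells 2 of 97 were called, 1 higher and 1 lower. That is 2.06%, against 7.23% of all 9921 genes (3.9% higher, 3.33% lower) and 8.39% (36 of 429) on the rest of the chromosome. In labeled Treg cells none of 97 was called by edgeR, with 0.0101% called among all genes. Of these 97, 3 had an unadjusted p under 0.05, and DESeq2 also called 0, with 0.514% called among all genes. In ex-Foxp3 cells none of 97 was called either, with 0.181% among all genes and 6 at an unadjusted p under 0.05. DESeq2 called 0 there, with 0.857% called among all genes. Among the alternative fits the window's share was the higher one in 2 of 20 for labeled, 1 of 20 for ex-Foxp3, 1 of 21 for post-tamoxifen cells and 3 of 21 for the sums described next. The fit of replicate numbers 4 and above was among these for each of them.

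Linked variants would be shared by the populations of a mouse, so the counts of the 3 pulse-chase populations were also added for each replicate number, which gave 5 control and 6 fl/fl sums. Whether a number stands for 1 mouse is not stated in the labels. The Y-linked reads set controls 2 and 3 apart from the other numbers in all 3 populations. They do not tell control 2 from control 3 or show that either is 1 mouse. In the sums 1 of 99 window genes was called, higher in fl/fl. That is 1.01%, against 2.98% of all 10179 genes (1.62% higher, 1.36% lower) and 2.3% (10 of 434) on the rest of chromosome 17. Deviations of same-numbered sums correlated at 0.113 to 0.42 over 5 pairs, but the best match had the same number in only 2 of 5. The other best matches lay within numbers 1 to 3 or within 4 to 6, so the correlation was not specific to a number. With the number as a replicate block 4 of 98 window genes were called (C3, Sgol1, Slc25a23 and Treml2). That fit called 10.8% of all genes.

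**Figure D1:**
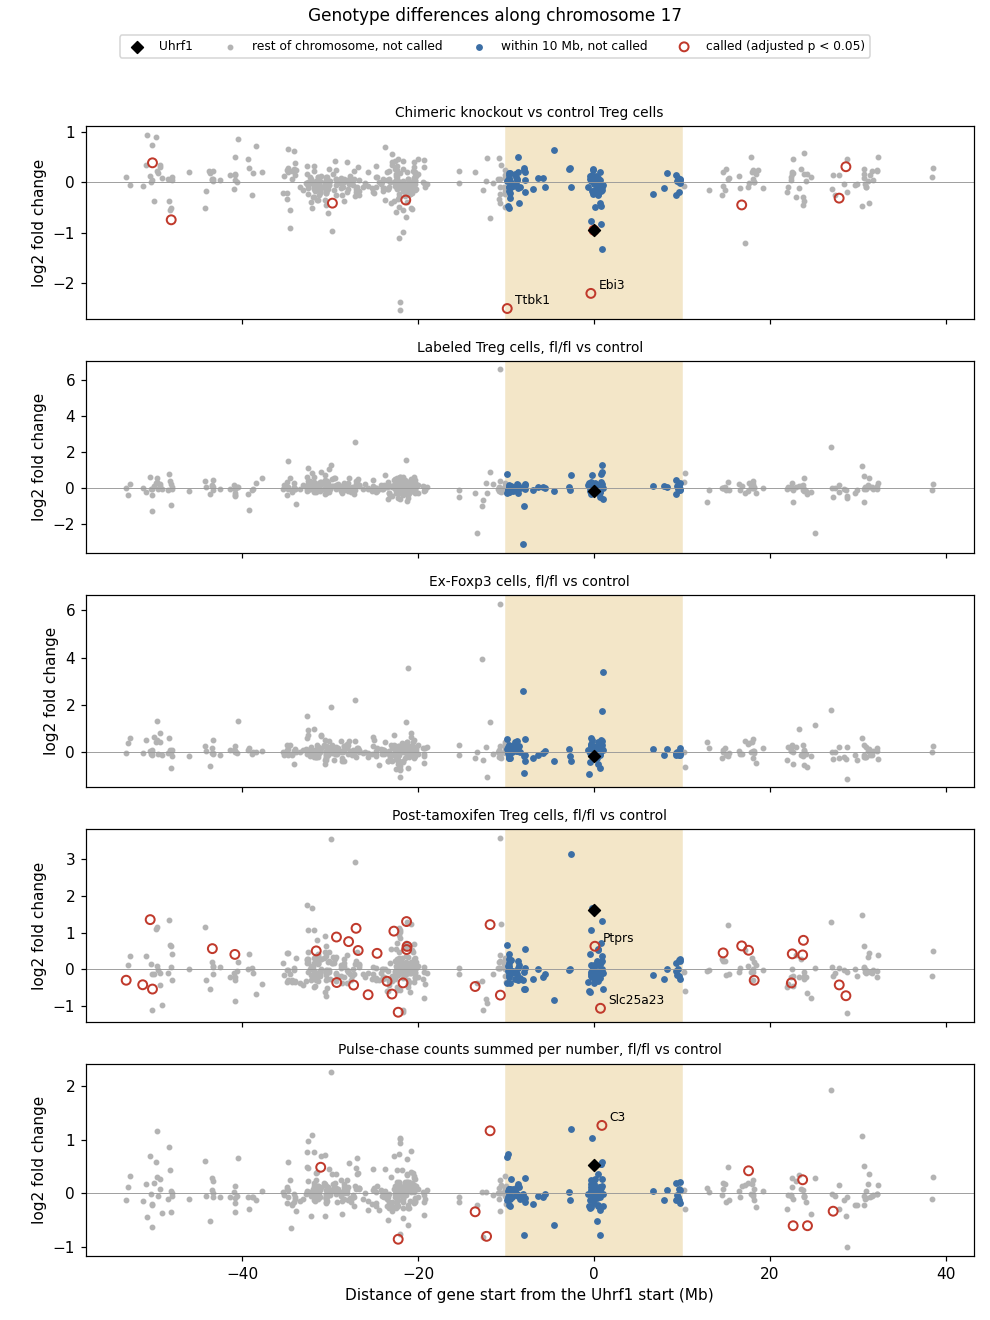
Each point is a gene on chromosome 17, at the distance of its start from the Uhrf1 start in Mb (horizontal) and at its log2 fold change, floxed against control (vertical, a separate scale in each panel), in the 5 comparisons. The shaded band holds the window of 10 Mb either side, black diamonds mark Uhrf1, and red circles mark calls: 2, 0, 0, 2 and 1 fall among the window genes, from top to bottom.

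At an unadjusted p under 0.05 the window's share was above that of all genes in the chimera and below it in the other 4 comparisons. The shares were 14.9% of window genes against 13.4% of all genes in the chimera, 3.09% against 9.41% in labeled, 6.19% against 8.84% in ex-Foxp3, 14.4% against 24.3% in post-tamoxifen cells and 11.1% against 18.1% in the sums. Median absolute log2 fold changes were 0.12 in the window and 0.14 over all genes in the chimera, and 0.10 and 0.13 in the sums. Ex-Foxp3 cells were the 1 comparison in which the window's median was the larger (0.16 against 0.14). Within 2 Mb of Uhrf1, 9.76% of 41 genes had p under 0.05 in the chimera, against 14.3% of 49 at 5 to 10 Mb. In the sums these shares were 13.3% of 45 and 8% of 50, and in post-tamoxifen cells 18.2% of 44 and 8.16% of 49. In labeled cells they were 2.27% and 4.08%, and in ex-Foxp3 cells 6.82% and 6.12%. Calls within 2 Mb were 1, 2 and 1 in the chimera, post-tamoxifen and summed comparisons. That is 2.44%, 4.55% and 2.22%, against 2.41%, 7.23% and 2.98% of all genes. The stretch from 2 to 5 Mb held only 4 tested genes, and 3 of them reached p under 0.05 in the chimera (Satb1, Kat2b and Rab5a) and 2 in post-tamoxifen cells (Satb1 and Sgol1). This stretch was singled out after its values were seen, and edgeR on all libraries called none of its 4 genes in any of the 5 comparisons. DESeq2 called 3 of them, Satb1 and Kat2b in the chimera and Sgol1 in post-tamoxifen cells. Chromosome 17 as a whole ranked 15 of 20 chromosomes by percent called in the chimera and 18 of 20 in the sums.

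**Figure D2:**
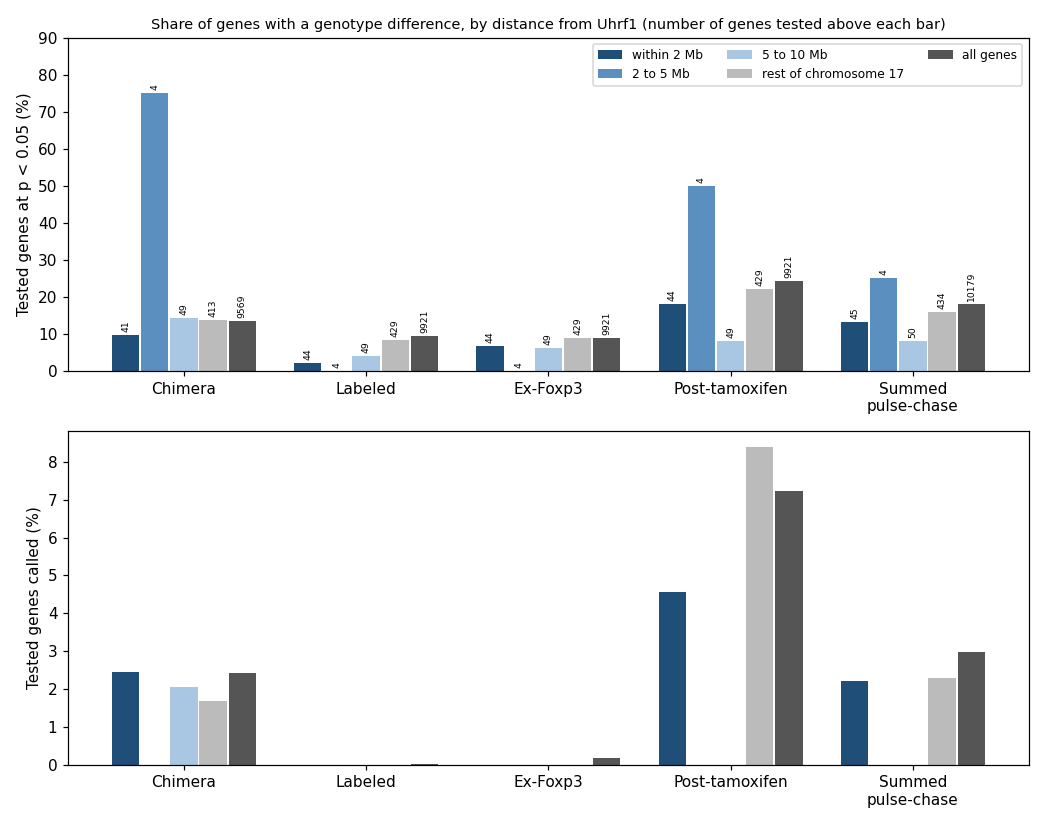
Bars give the percent of tested genes at an unadjusted p under 0.05 (upper panel) and called at an adjusted p under 0.05 (lower panel) by distance from Uhrf1, for the rest of chromosome 17 and for all genes, in the 5 comparisons. Numbers above the upper bars count the genes tested. The tall bars at 2 to 5 Mb rest on 4 genes, and the bars within 2 Mb lie near or under those of all genes.

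The genes closest to the floxed locus gave 1 call over the 5 comparisons, Ptprs in post-tamoxifen cells. The 6 nearest tested genes on each side were Tnfaip8l1, D17Wsu104e (Mydgf, a secreted factor), Dpp9 (a dipeptidyl peptidase that restrains inflammasomes), Fem1a, Ticam1 (TRIF, the adaptor of Toll-like receptors 3 and 4) and Plin3 (a lipid droplet coat protein) at lower coordinates. At higher coordinates they were Kdm4b (a histone H3 lysine 9 demethylase), Ptprs, Safb2 and Safb (adjacent paralogs that bind nuclear scaffold DNA and RNA), Rpl36 and Lonp1 (the mitochondrial Lon protease). Plin3 starts 24.4 kb before Uhrf1 and Kdm4b 22.7 kb after it, and their log2 fold changes were -0.17 ± 0.24 and -0.17 ± 0.11 in the chimera and 0.17 ± 0.12 and -0.19 ± 0.11 in the sums. Over the 12 genes the log2 fold changes ran from -0.48 (Ptprs) to 0.27 (Tnfaip8l1) in the chimera, from -0.19 to 0.29 in labeled, from -0.27 to 0.25 in ex-Foxp3 and from -0.19 to 0.27 in the summed comparison. None was called there, with smallest edgeR adjusted p-values of 0.383, 0.643, 0.679 and 0.191. An unadjusted p under 0.05 was reached by 0, 0, 0 and 1 of them, and by 13.4%, 9.41%, 8.84% and 18.1% of all genes. In post-tamoxifen cells the range was -0.37 (Kdm4b) to 0.63 (Ptprs). There Ptprs was called, and 3 of the 12 had an unadjusted p under 0.05 (Ptprs, Safb2 and Kdm4b), as did 24.3% of all genes.

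**Figure D3:**
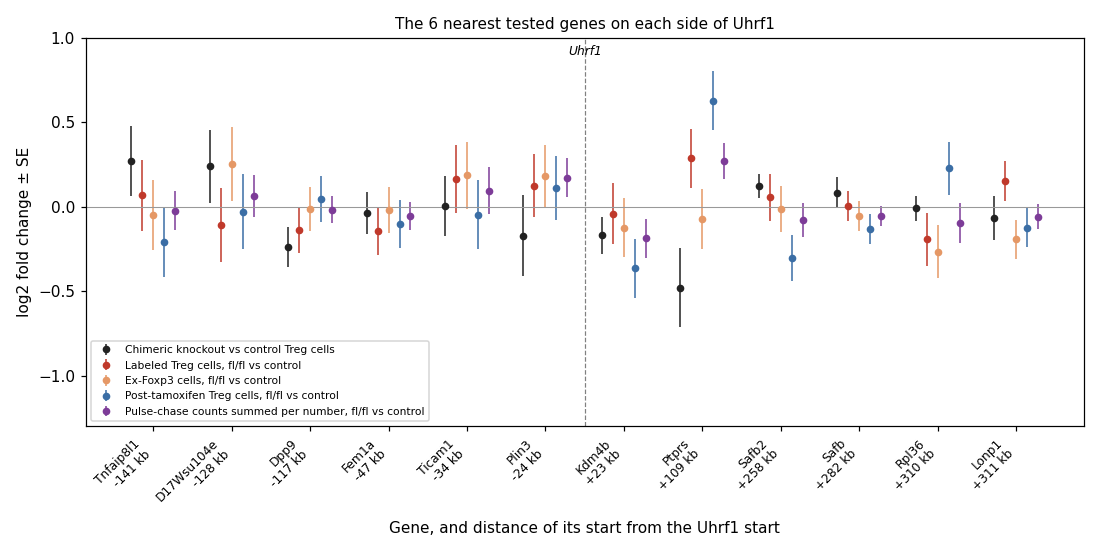
Points give the log2 fold change (floxed against control) and bars its SE for the 6 nearest tested genes on each side of Uhrf1, in order of position and not to scale, with the distance of each start in kb. None of the 12 was called outside post-tamoxifen cells, where Ptprs in post-tamoxifen cells stands highest at 0.63.

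Ptprs encodes a receptor tyrosine phosphatase, and its start lies 0.109 Mb from that of Uhrf1. In post-tamoxifen Treg cells the controls stood at 74.8, 75.8, 102, 93.2 and 74.6 CPM, and the 6 fl/fl libraries ran from 79.0 through a median of 137 to 185 CPM. Of the fl/fl libraries, 4 of 6 were above every control and numbers 3 and 4 lay among the controls, so the groups overlapped. The log2 fold change was 0.63 ± 0.18 (SE), with an edgeR adjusted p of 0.0246. In labeled cells the difference was 0.29 ± 0.17 (adjusted p = 0.643) and in ex-Foxp3 cells -0.07 ± 0.18 (0.961). In the chimera it was -0.48 ± 0.23 (0.445), the other direction. The test of the difference between post-tamoxifen and labeled cells, in a fit without a term for the number, gave 0.34 ± 0.25 (edgeR adjusted p = 0.746). The call was lost in 9 of 21 alternative fits: with the replicate block (adjusted p = 0.213), with the groups fitted alone (0.0956), without controls 2 and 3 (0.0553), in numbers 1 to 3 (0.137), in numbers 4 and above (0.0870), and without control 1 or 5 or fl/fl 1 or 2 (up to 0.0693).

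Among cytokines and their kin, Ebi3 was lower in the chimeric knockouts and was not called in the pulse-chase comparisons with all libraries. Ebi3, the shared subunit of interleukin 27 and of interleukin 35, a Treg cytokine, starts 0.351 Mb before Uhrf1. Its level was 18.5, 22.4, 29.7 and 16.7 CPM in the chimera controls and 5.58, 2.22, 3.37 and 7.74 CPM in the libraries labelled chimeric knockout. Every knockout library lay below every control. The levels averaged 21.8 ± 5.80 against 4.73 ± 2.45 CPM (SD, n = 4 each), 4.59-fold lower, with a log2 fold change of -2.20 ± 0.31 and an edgeR adjusted p of 7.27e-05. Without the library labelled chimeric knockout 4 the log2 fold change was -2.54 (adjusted p = 8.58e-06), and without controls 3 and 4 it was -2.11 (0.00366). In the pulse-chase libraries the genotypes overlapped: labeled controls held 26.8, 30.7, 20.3, 18.1 and 16.6 CPM, and labeled fl/fl libraries ran from 11 through 19.3 to 29.5 CPM. The log2 fold change was -0.15 ± 0.50 there (adjusted p = 0.953) and 0.17 ± 0.27 in the sums (0.792). In post-tamoxifen cells it was 1.06 ± 0.57 (edgeR adjusted p = 0.259), and without post-tamoxifen control 2, whose level was far above that of the other controls, it was 2.51 ± 0.60 and was called higher in fl/fl cells (adjusted p = 0.00611).

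Beside Ebi3, the window holds 3 ligands of the tumour necrosis factor superfamily. Tnfsf14 (LIGHT, which binds the receptors HVEM and lymphotoxin beta receptor) starts 0.886 Mb after Uhrf1. It stood at 12.4, 11, 6.96 and 11.8 CPM in chimera controls and at 3.72, 3.11, 2.53 and 7.45 CPM in the knockouts, where only the library labelled chimeric knockout 4 reached the lowest control. Its log2 fold change was -1.32 ± 0.38 with an edgeR adjusted p of 0.0548, just outside the threshold. Without that library it was -1.73 and was called (adjusted p = 0.0088). In the sums it was 0.27 ± 0.12 (0.236). In post-tamoxifen cells it was 0.37 ± 0.24 (0.361), and without post-tamoxifen control 2 it was 0.90 ± 0.22 and was called (edgeR adjusted p = 0.00647). Tnfsf9 (the ligand of 4-1BB) had -0.46 ± 0.68 in the chimera (0.848), and Cd70, with 10 counts in all libraries together, was not tested.

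**Figure D4:**
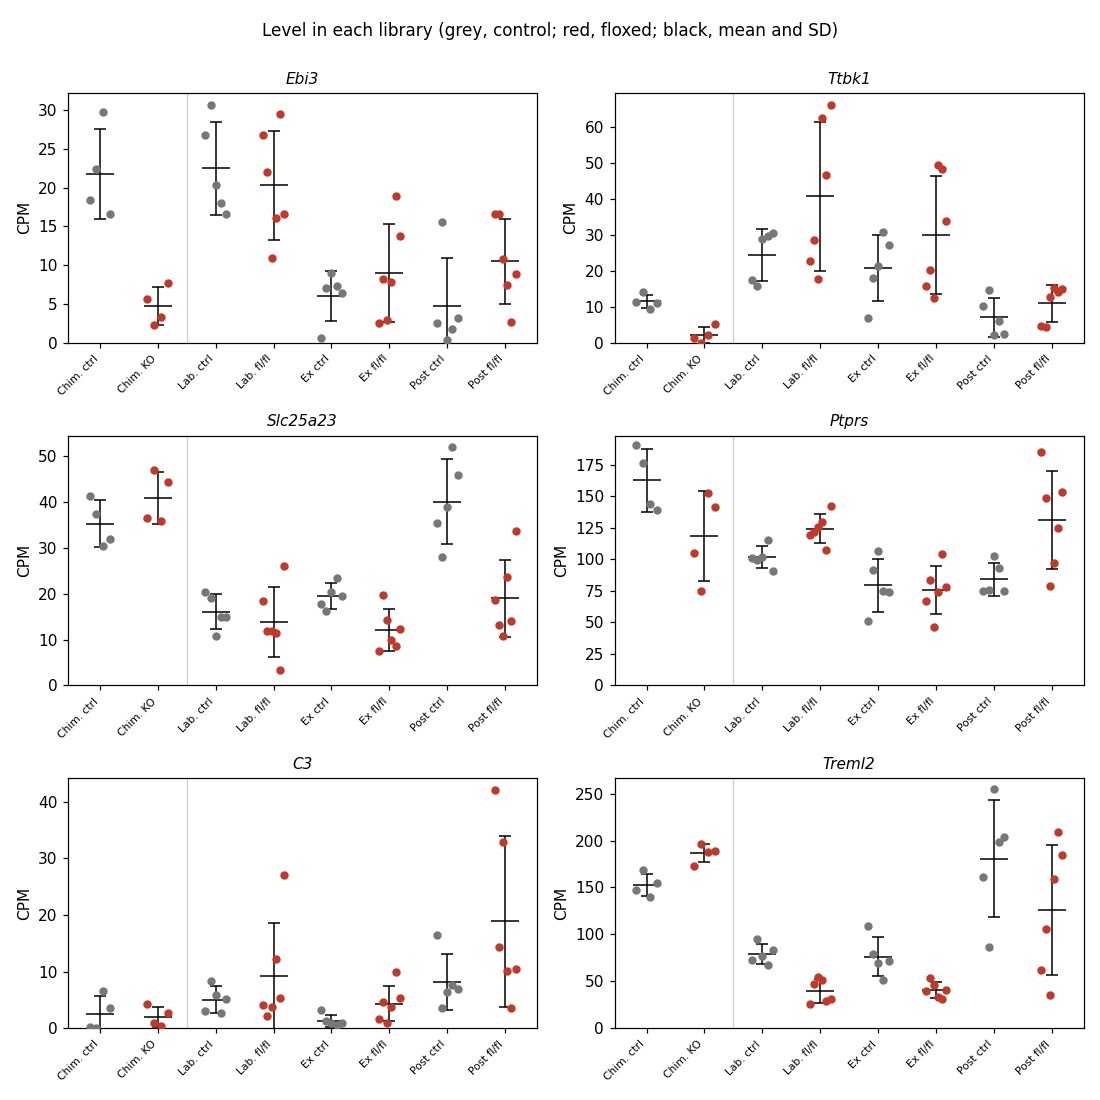
Each point is 1 library and the vertical axis is its level in CPM, for 6 genes of the window (Chim., chimera; Lab., labeled; Ex, ex-Foxp3; Post, post-tamoxifen; ctrl, control; KO, chimeric knockout). Black bars give the mean and SD. Ebi3 and Ttbk1 separate the genotypes in the chimera but not in the pulse-chase populations, and Treml2 separates them in opposite directions in the chimera and in labeled cells.

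Ttbk1 was the other call in the chimera. It encodes tau tubulin kinase 1, best known from neurons, and starts 9.86 Mb from Uhrf1, at the edge of the window. Controls held 11.4, 14, 9.49 and 11 CPM and the knockouts 1.33, 0, 2.11 and 5.06 CPM, with no overlap. The log2 fold change was -2.50 ± 0.55 (edgeR adjusted p = 0.0180). In 5 of 13 alternative fits it missed the threshold: without control 2, control 4, or the libraries labelled chimeric knockout 1 or 3, and without controls 3 and 4 (adjusted p up to 0.101), and it did not pass a filter at a mean log2 CPM of 3. In the pulse-chase sums the log2 fold change was 0.67 ± 0.33 (0.323), the other direction. In numbers 4 and above Ttbk1 was called higher in fl/fl, both in post-tamoxifen cells and in the sums, where 2.1% and 1.62% of all genes were called.

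Among T cell signalling genes, Treml2 separated the genotypes most often. It encodes a receptor of the TREM family found on T and B cells, and starts 8.00 Mb before Uhrf1. In the chimera it was at 147, 168, 139.8 and 155 CPM in controls and 173, 196, 188 and 189 CPM in knockouts, all knockouts being higher (log2 fold change 0.29 ± 0.09, adjusted p = 0.0737). In labeled cells the controls held 72.5, 95, 77.1, 67.3 and 82.9 CPM and the fl/fl libraries 25.4 through 39.3 to 54.3 CPM, all fl/fl libraries being lower (-0.998 ± 0.34, 0.302). In ex-Foxp3 cells the difference was -0.90 ± 0.33 (0.316) and in post-tamoxifen cells -0.53 ± 0.31 (0.295), with overlap in both. The sums stood at 97.8, 88.4, 138, 113 and 117 CPM in controls and 42.3 through 66.9 to 85.5 CPM in fl/fl, without overlap (-0.77 ± 0.19, 0.0619). With all libraries edgeR called it in none of these 5, and several alternatives did. In the sums 7 of 21 alternative fits called it, among them DESeq2 (-0.77, adjusted p = 0.00105), the mean contrast of the fit of 6 groups (-0.81, 0.00467) and the replicate block (-0.88, 0.0478). The mean contrast had no term for the number and counted the 3 populations of a number as independent. That contrast called 11.8% of all genes, against 2.98% in the sums. In labeled cells 3 of 20 did, with the replicate block (-0.96, adjusted p = 0.000732), with the groups fitted alone (0.0110) and in numbers 4 and above (0.0154). In ex-Foxp3 cells 2 of 20 did, with the replicate block (-0.89, adjusted p = 0.000435) and with the groups fitted alone (0.00723). In the chimera DESeq2 called it, in the higher direction (0.29, adjusted p = 0.0418). Of the 8 genes of the signalling list, 7 were tested, and edgeR called 0 in each of the 5 comparisons. DESeq2 called Treml2 in the chimera and in the sums and no other gene of this list. At an unadjusted p under 0.05 edgeR had 2, 1, 1, 0 and 1 of the 7 in the chimera, labeled, ex-Foxp3, post-tamoxifen and summed comparisons. In the same order, 13.4%, 9.41%, 8.84%, 24.3% and 18.1% of all genes were under it. Vav1, the exchange factor downstream of the T cell receptor, starts 0.976 Mb from Uhrf1 and had sums of 268 to 302 CPM in controls and 259.8 to 308 CPM in fl/fl (log2 fold change -0.01 ± 0.06, adjusted p = 0.955).

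Groups that did not overlap were counted over the window as well. In the chimera 7 of 94 genes had no overlap (7.45%, against 8.13% of all genes): Ebi3 and Ttbk1 lower, and Kat2b, Nfya, Rpl7l1, Safb2 and Treml2 higher. In labeled cells 2 of 97 did (2.06%, against 1.45%), Treml2 and Trip10, an adaptor of the small GTPase Cdc42, whose log2 fold change was 1.24 ± 0.50 (edgeR adjusted p = 0.434). In ex-Foxp3 and post-tamoxifen cells 0 of 97 did, against 2.22% and 3.1% of all genes. In the sums 2 of 99 did (2.02%, against 3.67%), C3 and Treml2.

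The transcription and chromatin genes of the window gave no call by edgeR with all libraries. All 10 transcription and cell cycle genes and all 7 chromatin genes listed were tested. At an unadjusted p under 0.05 edgeR had 2, 0, 1, 2 and 1 of the first list and 1, 0, 0, 3 and 0 of the second, in the chimera, labeled, ex-Foxp3, post-tamoxifen and summed comparisons. The shares of all genes there were 13.4%, 9.41%, 8.84%, 24.3% and 18.1%. DESeq2 called Satb1 and Kat2b in the chimera and Sgol1 in post-tamoxifen cells. Satb1, an organiser of chromatin in T cells, lies 4.57 Mb before Uhrf1 and was the gene of the window with the most reads (472.7 CPM over all libraries, not corrected for gene length). Chimera controls held 579, 646, 506 and 521 CPM and knockouts 928, 1150.2, 818 and 628 CPM, with overlap only between control 2 and the library labelled chimeric knockout 4. The log2 fold change was 0.65 ± 0.19, with an edgeR adjusted p of 0.186. In post-tamoxifen cells controls held 755, 482, 1082, 950.0 and 934 CPM and fl/fl libraries 320.1 through 462 to 603 CPM, with only control 2 among the fl/fl values. There the difference was -0.83 ± 0.31 (0.0907), and in the sums -0.60 ± 0.19 (0.140). Of 21 alternative fits of post-tamoxifen cells, 2 called Satb1. They were the replicate block (-0.88, edgeR adjusted p = 0.00499) and numbers 4 and above (5.5e-05). In the sums 2 of 21 called it, in numbers 4 and above (0.00047) and without fl/fl 1 (0.0286). It was called in ex-Foxp3 cells in numbers 4 and above. In the chimera the replicate block called it, as did the fit without the library labelled chimeric knockout 4. Kat2b, a histone acetyltransferase 2.74 Mb before Uhrf1, was at 127, 140.3, 128 and 142 CPM in chimera controls and 162, 166, 156 and 166 CPM in knockouts (0.28 ± 0.09, 0.0919). Its groups did not overlap there, and in the sums its difference was -0.12 ± 0.08 (0.467).

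Sgol1 and Chaf1a are genes of chromosome segregation and copying. Sgol1, which protects centromeric cohesion, stood at 7.61, 0.976, 2.78, 1.08 and 0 CPM in post-tamoxifen controls and 2.65 through 13.7 to 42.5 CPM in fl/fl libraries, with overlap (3.15 ± 1.0, edgeR adjusted p = 0.0510). It was called in 8 of 21 alternative fits, among them DESeq2 (2.93, adjusted p = 0.0306) and the replicate block (3.17, 0.00813). Chaf1a, the large subunit of the histone chaperone that acts behind the replication fork, starts 0.263 Mb before Uhrf1 and had 1.67 ± 0.68 (0.122). The fl/fl libraries of numbers 1 to 3 held 56.7, 59.9 and 77.2 CPM of Chaf1a and those of numbers 4 to 6 held 9.23, 14.1 and 15.4 CPM. The summed division markers (5 genes) were 242 to 3526 CPM in these fl/fl libraries and 134 to 1037 CPM in the controls. The B and plasma cell markers were 8.46 to 554 CPM in these fl/fl libraries, highest in numbers 1 to 3, and 3.17 to 83.2 CPM in the controls. The part of either list in the result was not tested. Ccnd3, cyclin D3, had its largest difference in ex-Foxp3 cells (0.44 ± 0.13, 0.162), and was called there with the replicate block (0.47, edgeR adjusted p = 0.0377) and in numbers 1 to 3 (0.73, 0.00504).

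Slc25a23, a calcium-regulated carrier of adenine nucleotides in the inner mitochondrial membrane, fell in post-tamoxifen fl/fl cells. It starts 0.740 Mb from Uhrf1. Controls held 35.5, 28.0, 38.9, 52.0 and 45.8 CPM and fl/fl libraries 10.8 through 16.4 to 33.6 CPM. All fl/fl libraries except number 6 were below every control. The log2 fold change was -1.06 ± 0.29, with an edgeR adjusted p of 0.0210. It was -0.22 ± 0.32 in labeled cells (0.882), -0.69 ± 0.31 in ex-Foxp3 cells (0.477), -0.78 ± 0.22 in the sums (0.0658) and 0.21 in the chimera, where it was not called. The test of the difference between post-tamoxifen and labeled cells, in a fit without a term for the number, gave -0.85 ± 0.43 (0.649). The post-tamoxifen call was lost when the 2 groups were fitted alone (0.0530), without control 4 or 5 or fl/fl 2 or 3 (up to 0.0791) and within numbers 4 and above (0.276). Of the 5 other mitochondrial genes listed, edgeR and DESeq2 called 0 in each comparison. An unadjusted p under 0.05 was found for 0, 0, 1, 1 and 2 in the chimera, labeled, ex-Foxp3, post-tamoxifen and summed comparisons. The shares of all genes there were 13.4%, 9.41%, 8.84%, 24.3% and 18.1%.

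C3, the central complement component, was the window gene called in the sums. It starts 0.901 Mb from Uhrf1 and is made mostly by liver and myeloid cells. The sums stood at 5.06, 4.85, 4.36, 3.99 and 3.55 CPM in controls and 6.85 through 10.4 to 14.2 CPM in fl/fl, and all fl/fl sums were higher. The log2 fold change was 1.26 ± 0.25, with an edgeR adjusted p of 0.0146. In single populations it was 0.87 ± 0.59 in labeled (0.701), 1.72 ± 0.72 in ex-Foxp3 (0.414) and 1.32 ± 0.57 in post-tamoxifen cells (0.147), and -0.15 in the chimera. The call was lost without controls 2 and 3 (adjusted p = 0.0837) and within numbers 4 and above (0.0868). C3 did not pass a filter at a mean log2 CPM of 3. The myeloid markers (7 genes) summed to 15.5 to 413 CPM in post-tamoxifen controls and 55.0 to 531 CPM in fl/fl, and to 13.1 to 17.3 and 7.60 to 27.4 CPM in labeled cells, and their part in the C3 difference was not tested. Emr1 (F4/80), a defining macrophage gene that also lies in the window, had -0.24 ± 0.72 in the sums (0.900). It was called lower in fl/fl in numbers 4 and above and without control 2 and fl/fl 3, both in post-tamoxifen cells and in the sums. In post-tamoxifen numbers 4 and above the myeloid markers, which include Emr1, were 174 to 234 CPM in controls and 55.0 to 86.2 CPM in fl/fl. Their part in the Emr1 difference was not tested. Emr1 was at 0 in all 5 ex-Foxp3 controls and at 0 to 1.48 CPM in ex-Foxp3 fl/fl libraries. In these bulk samples, more cells of a type and more RNA per cell cannot be told apart.

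The chimera and the pulse-chase sums share no library, so their differences could be set against each other. Of the 93 window genes tested in both, 30 (32.3%) had the same sign, against 40% of 9535 genes over the genome and 40.5% of 410 on the rest of chromosome 17. Across these 93 genes, which are not independent replicates and share each experiment's libraries, Pearson's r was -0.39 and Spearman's rho -0.44, and over all 9535 genes -0.32 and -0.29. By edgeR 0 of the 93 window genes and 41 of the 9535 genes over the genome were called in both. By DESeq2 1 window gene was called in both, Treml2, with opposite signs. DESeq2 called 3.32% of all genes in the chimera and 6.28% in the sums, and its overlap over all genes was not counted. An unadjusted p under 0.05 in both experiments was reached by 3 of the 93 window genes. Over the genome 429 of 9535 genes reached it, and on the rest of chromosome 17 it was 17 of 410. Of these, 0, 36 and 2 had the same sign. Both floxed groups are labelled Uhrf1fl/fl, and whether they carry the same floxed line was not tested.

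**Figure D5:**
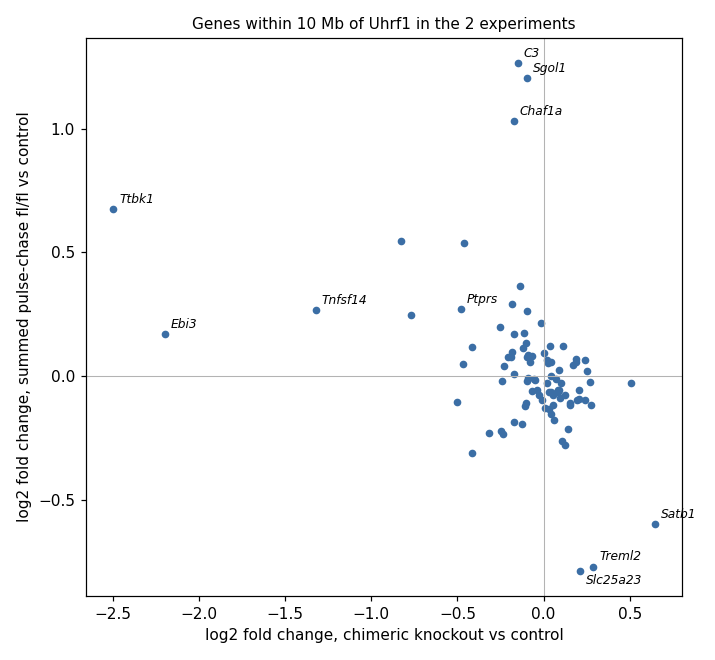
Each point is 1 of the 93 window genes tested in both experiments, at its log2 fold change in the chimera (horizontal) and in the pulse-chase sums (vertical). Ebi3, Ttbk1 and Tnfsf14 lie to the left with positive values in the sums (0.17, 0.67 and 0.27), and Treml2, Slc25a23 and Satb1 lie at the lower right.

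A change of the genotype difference between sorted populations was not called for any window gene. Ex-Foxp3 against labeled cells gave 0 calls among 97 window genes by edgeR (0% of all genes), with 5 at an unadjusted p under 0.05 (5.15%, against 2.38% of all genes). Post-tamoxifen against labeled cells gave 0 (0.0202% of all genes), with 4 at an unadjusted p under 0.05 (4.12%, against 7.73%). These comparisons share the labeled libraries. DESeq2 was not run on them.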

How the data were processed

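RNA of sorted cells was extracted with the AllPrep DNA/RNA Micro kit and made into libraries with a stranded total RNA kit, per the labels' protocols. The submitters' processing notes name bcl2fastq 2.17.1.14 and TopHat2 2.1.0 with the builds mm10 and GRCm38. The authors deposited 1 table of raw counts, whole reads per gene without normalization, for 41 libraries and 19434 genes. How reads were counted, and whether by strand, is not given in the sources used here. Reads from overlapping genes on opposite strands therefore cannot be told apart, and the paralogs Safb and Safb2 may share reads.

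The members and gene lists were chosen with earlier results of these data known. Groups came from the labels, which call the libraries biological replicates. Genes were tested with edgeR 4.0.16 in R 4.3.3 (limma 3.58.1): TMM scaling, the default filter on low counts, and 2-sided quasi-likelihood F-tests with robust dispersions. p-values were adjusted after Benjamini-Hochberg over all genes tested, with 0.05 as threshold. The chimera fit held 8 libraries and 9569 genes, the pulse-chase fit 33 libraries in 6 groups and 9921 genes, and the fit of the sums 10179 genes. The 3 fits had biological coefficients of variation of 0.134, 0.215 and 0.188. Errors of log2 fold changes are SE, and levels are CPM after TMM scaling. Distances are from start to start. All pairs of libraries of a group differed by more than counting noise (chi-square per degree of freedom at least 2.57).

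The rule for named genes took Uhrf1, Foxp3, every called gene, the 5 genes of smallest p per fit, the 6 nearest tested genes on each side, the 8 most abundant and the listed genes. The lists cover tumour necrosis factor ligands, T cell signalling, transcription and cell cycle, chromatin, ubiquitin and proteases, mitochondria (without D17Wsu104e, which was listed there by mistake), lipid droplets, myeloid genes in the window and DNA methylation genes outside it. Rab5a, Rpl7l1 and Chaf1a were named outside this rule, after seeing their values, and not every gene the rule took is named. Alternatives were a 5 Mb window, leaving out each library, DESeq2 1.42.0, fitting only the groups compared, a replicate block, and other scaling factors and filters. Fits without doubted libraries and by number were chosen after seeing the data. The scripts were tested on simulated data. Numbers were taken to pair libraries where the deviations of every same-numbered pair correlated above 0.1, which held in the sums alone. Even there the best match had the same number in only 2 of 5 pairs. Figures were drawn in Python 3.11.15 (pandas 2.3.3, matplotlib 3.10.9).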

Additional observations from a re-analysis of the deposited data

Results flagged for a closer look

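Among 90 groups examined (9 genes of the text, over the groups of libraries and of sums), 4 held 1 library far from the others by Dixon's test. Chance flags about 1 in 20, and the sums repeat the reads of the libraries, so the groups were not independent. Ebi3 stood at 15.6 CPM in post-tamoxifen control 2, with the other controls at 0.397 to 3.20 CPM. Tnfsf14 stood at 29.6 CPM in the same library, with the others at 9.61 to 11.1 CPM. This library also held the lowest Foxp3 level of the post-tamoxifen controls (123 CPM), and without it both Ebi3 and Tnfsf14 were called in post-tamoxifen cells, among 4 window genes, while 9.05% of all genes were called. C3 stood at 3.22 CPM in ex-Foxp3 control 1, with the others at 0.521 to 1.29 CPM. Uhrf1 stood at 32.5 CPM in chimera control 1, with the others at 22.3 to 23.4 CPM.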

How the results depend on the processing

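In the chimera the count of called window genes was 2, and it was 6 with DESeq2 (6.38%, above the 3.32% of all genes). It was 1 in a window of 5 Mb either side and 1 without controls 3 and 4 (0.962% of all genes). Leaving out a library gave 1 to 4, with 4 without the library labelled chimeric knockout 4 (3.63% of all genes). Ebi3 was called in all 14 alternatives, with log2 fold changes from -2.54 to -1.92. In labeled cells the count was 0, and leaving out a library gave 0. It was 1 (Treml2) with the replicate block (2.12% of all genes), with the groups fitted alone (0.443%) and in numbers 4 and above (0.0705%). In ex-Foxp3 cells it was 0, and it was 2 with the replicate block (Ccnd3 and Treml2, with 4.15% of all genes). It was 1 with the groups alone (1.5%), 1 in numbers 1 to 3 (1.44%) and 1 in numbers 4 and above (0.0503%). In post-tamoxifen cells it was 2, and it was 0 with the groups alone (1.57% of all genes). It was 11 in numbers 1 to 3 (13.4% of all genes) and 3 in numbers 4 and above (2.1%). It was 5 without control 2 and fl/fl 3 (5.1%, against 6.27% of all genes). Leaving out a library gave 0 to 6, with 6 without fl/fl 6 (6.19%, against 11.6% of all genes). In the sums it was 1, and it was 0 with a filter at a mean log2 CPM of 3 (3.58% of all genes). It was 3 with DESeq2 (3.03%, against 6.28% of all genes) and 4 with the replicate block (4.08%, against 10.8%). It was 3 with the mean contrast of the 6-group fit, which counted the 3 populations of a number as independent and called 11.8% of all genes. It was 0 without controls 2 and 3 (0.765% of all genes), 6 in numbers 1 to 3 (11.5%), and 4 in numbers 4 and above (1.62%). It was 2 without control 2 and fl/fl 3. Leaving out a number gave 1 to 3, with 3 without fl/fl 6 (3.06%, against 4.97% of all genes). In numbers 4 and above the window's share of calls was above that of all genes in every pulse-chase comparison. It was 1% against 0.0705% in labeled, 1% against 0.0503% in ex-Foxp3, 3% against 2.1% in post-tamoxifen cells and 3.92% against 1.62% in the sums. The calls were Treml2 in labeled and Satb1 in ex-Foxp3 cells. They were Emr1, Satb1 and Ttbk1 in post-tamoxifen cells, and these and Treml2 in the sums. In numbers 1 to 3 the window's share was the lower one in each. With an unadjusted p the shares of window genes were 14.9%, 6.19%, 14.4% and 11.1% in the chimera, ex-Foxp3, post-tamoxifen and summed comparisons. No window gene called under any of these alternatives had the opposite direction in the fit with all libraries. Where a call depended on a setting, the cause was not tested. The correlations of same-numbered libraries lay between -0.0903 and 0.0253 in the chimera and between 0.0817 and 0.296 for labeled cells. For ex-Foxp3 cells they lay between 0.0295 and 0.164, and for post-tamoxifen cells between -0.0843 and 0.245. They were positive in all 5 labeled and all 5 ex-Foxp3 pairs, but not above 0.1 in every pair, the level asked for here, so these numbers were not taken as pairs. There the replicate block gave 3, 1, 2 and 3 calls in the window (3.19%, 1.11%, 2.22% and 3.23%), with 1.84%, 2.12%, 4.15% and 6.26% of all genes called. Of the 158 genes, 55 held under 50 counts over all libraries, and nothing is shown of genotype differences in these.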

Other observations

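Among the remaining genes of the window, the 9 ubiquitin ligases and proteases were all tested, and edgeR and DESeq2 called 0 in each comparison. At an unadjusted p under 0.05 edgeR had 3 of them in the chimera (Cul7, Cul9 and Usp49) and 0 in the other 4 comparisons. Of all genes, 13.4% were under it in the chimera. In labeled, ex-Foxp3, post-tamoxifen and summed comparisons 9.41%, 8.84%, 24.3% and 18.1% were. Cul7, a cullin scaffold 9.65 Mb before Uhrf1, had the lowest log2 fold change of this list in the chimera (-0.50 ± 0.17, edgeR adjusted p = 0.136), and Usp49, a deubiquitinase, the highest (0.51 ± 0.24, 0.344). In the sums the list ran from -0.12 to 0.05. Of the 3 perilipins in the window only Plin3 passed the filter.

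The most abundant genes of the window after Satb1 were Ankrd12, Ubr2, Safb2, Rpl36, Vav1, Safb and Khsrp, at 266 to 459 CPM over all libraries. In the sums their log2 fold changes lay between -0.13 (Ankrd12) and -0.01 (Vav1), with adjusted p-values of at least 0.572. Of 6 DNA methylation genes outside the window, Tet2 was lower in the chimeric knockouts (-0.31 ± 0.08, edgeR adjusted p = 0.0456), and Tet3 was lower in post-tamoxifen cells (-0.65 ± 0.12, 0.00073) and in the sums (-0.41 ± 0.08, 0.0144).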
